A study of Mus musculus with 32 samples.

Results

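10 genes of the blood endothelium and of the barrier it forms were followed through hippocampus (HPC), meninges and sorted meningeal lymphatic endothelial cells (mLECs) of WT, 5xFAD and light-treated 5xFAD mice. They were picked by symbol for their known roles, with earlier results of these data known, and all 10 were found among the 22337 genes of the deposited tables. 5 of them mark endothelial cells in general: Pecam1, Cdh5, Emcn, Vwf and Ly6c1. Plvap marks fenestrated endothelium, and Slc2a1, Mfsd2a, Abcb1a and Slco1a4 encode transporters of the blood-brain barrier.

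Capillaries of the brain parenchyma are sealed by tight junctions, carry few caveolae, and pass nutrients and drugs through dedicated transporters. Signalling of Wnt ligands through beta-catenin keeps this barrier type and keeps Plvap, the protein of the diaphragms that span fenestrae and caveolae, at a low level. Fenestrated vessels of the choroid plexus and many vessels of the dura lack the barrier and carry Plvap, which some lymphatic endothelium also makes.

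The series holds 32 libraries, each of RNA from 1 mouse. Each condition has 4 HPC libraries. Meninges and mLECs each have 4 WT libraries, with 3 for either 5xFAD condition. All groups were male mice 6 months of age on a C57BL/6J background, and the WT mice were littermates without the transgenes. 5xFAD mice carry human transgenes of familial Alzheimer's disease, which the Thy1 promoter drives mainly in neurons and not in endothelium. Light-treated 5xFAD mice received near-infrared light through the skull under isoflurane over weeks, and untreated mice are stated to have undergone the same anesthesia and handling under indoor lighting. mLECs were sorted from digested meninges as live cells without CD45 and with CD31 and PDPN on their surface. CD31 is the protein of Pecam1, so the presence of Pecam1 in mLECs followed from the sort and is no finding.

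The labels of the groups were checked by Thy1, the gene whose promoter drives the transgenes. It had an FPKM (fragments scaled for transcript length and library size) of 170.3 to 188.5 in WT HPC, of 407.1 to 622.3 in untreated and of 434.3 to 522 in light-treated 5xFAD HPC, so every transgenic HPC library lay above every WT library. This check reached HPC alone, since Thy1 overlapped between conditions in meninges, at 10.61 to 23.86, and in mLECs, at 0 to 13.31. Estimated counts summed to 13952825 to 23856476 per HPC library. The sums were 6601143 to 14708202 for meninges, and mLEC sums were 14231415 to 24207326. Meninges held RNA of other tissues, with an FPKM sum over 6 choroid plexus genes of 15680 to 49290 and over 5 erythroid genes of 2894 to 28470. The sorted mLECs had no Ptprc or Aqp4 in any library. Sums over the 6 astrocyte genes, Aqp4 included, were 96.2 to 443.7 and came from few of them. Of the 6 genes, 4 were at 0 in all WT libraries, 5 in all untreated and 2 in all light-treated 5xFAD libraries. The fibroblast gene Dcn had a median of 205.8 and a highest value of 611.5, while the fibroblast gene Col1a1 was at most 0.29. Of the 8 fibroblast genes, 5 were at 0 in all WT libraries, 3 in all untreated and 4 in all light-treated 5xFAD libraries. The lymphatic regulator Prox1 was below an FPKM of 1 in 5 of 10 libraries and Pdpn, used for the sort, in 5 of 10. 2 mLEC libraries stood apart. WT replicate 2 had the lowest sum over 8 lymphatic genes at 49.3, against a WT median of 2207, together with the highest level of the choroid plexus gene Ttr at 562.9. Untreated 5xFAD replicate 4 had an erythroid sum of 6222. Fold changes of Plvap in mLECs against WT are given with and without both libraries. Those of Abcb1a and Slco1a4 are given with and without WT replicate 2, as are those of Slc2a1 and Vwf in untreated 5xFAD mLECs.

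Promoter sequence was at hand in RefSeq's table for GRCm38.p6 for 6 of the 10 genes, and Plvap, Pecam1, Cdh5 and Vwf had no entry. 3 promoters are shown because their genes stood apart in the comparisons of tissues and treatments that follow: Mfsd2a, the transporter that ran against the other genes, and Slco1a4 and Emcn. Each is the 250 bases before the transcription start, 5′ to 3′ on the strand of the gene, with capitals at letters of the TCF/LEF motif CTTTGA, which binds the partners of beta-catenin, and of the ETS motifs CGGAAG and AGGAAG, which bind endothelial transcription factors among many others, searched on both strands. These motifs did not overlap in the sequences shown.
Mfsd2a promoter (GRCm38.p6, chr4:122961189-122961438, minus strand): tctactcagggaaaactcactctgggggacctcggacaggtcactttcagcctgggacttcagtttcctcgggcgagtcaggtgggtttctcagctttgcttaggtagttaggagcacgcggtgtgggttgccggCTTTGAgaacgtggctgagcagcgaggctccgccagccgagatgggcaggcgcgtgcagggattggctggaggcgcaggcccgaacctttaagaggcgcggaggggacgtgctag
Slco1a4 promoter (GRCm38.p6, chr6:141856221-141856470, minus strand): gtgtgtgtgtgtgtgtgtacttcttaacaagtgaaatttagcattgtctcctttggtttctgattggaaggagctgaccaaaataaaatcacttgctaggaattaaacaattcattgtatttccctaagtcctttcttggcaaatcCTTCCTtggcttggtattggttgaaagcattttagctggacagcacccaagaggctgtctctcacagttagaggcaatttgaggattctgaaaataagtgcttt
Emcn promoter (GRCm38.p6, chr3:137340828-137341077, plus strand): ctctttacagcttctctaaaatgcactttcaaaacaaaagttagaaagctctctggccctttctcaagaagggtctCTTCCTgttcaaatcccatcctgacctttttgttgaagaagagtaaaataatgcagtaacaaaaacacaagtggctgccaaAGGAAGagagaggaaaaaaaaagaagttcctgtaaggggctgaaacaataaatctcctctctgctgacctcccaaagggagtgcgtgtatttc
The Mfsd2a promoter held the TCF/LEF letters once, starting 115 bases before the transcription start, and no ETS letters. Slco1a4 held AGGAAG once, on the opposite strand, and Emcn held it at 2 places, once on each strand. The promoter of Slc2a1 held neither motif, and that of Abcb1a, not printed because its entry lies far upstream of the annotated gene start given below, held CTTTGA at 2 places and AGGAAG at 2. Of the 32851 promoters of the same length, 13.8% held CTTTGA and 39.2% held either ETS motif, so these matches are common letters and describe the sequence alone.

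The levels of the 10 genes in WT mice set the ground for the comparisons. In HPC, Ly6c1 had the highest median FPKM at 33.5, followed by Slc2a1 at 29.8, Mfsd2a at 16.1, Plvap at 9.80 and Slco1a4 at 7.23. Emcn, Pecam1, Abcb1a, Vwf and Cdh5 followed at 2.29, 2.20, 0.570, 0.350 and 0.300. Neighbours in this order overlapped between samples except Slc2a1 over Mfsd2a, Slco1a4 over Emcn and Pecam1 over Abcb1a, so that 3 of the 4 transporters lay above the general endothelial genes other than Ly6c1. In WT meninges, Ly6c1 led at 130.3, and Plvap at 58.1 came next to Slc2a1 at 56.8 and Emcn at 45.7, which overlapped. Mfsd2a came last at 2.77, below every Cdh5 value. In WT mLECs, Plvap led at 3523 with no sample in the range of the next gene, Emcn at 866.5, and Mfsd2a came last at 0.015. The mLEC table was made apart from the tissue table, so levels between them are set side by side with no test.

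**Figure D1:**
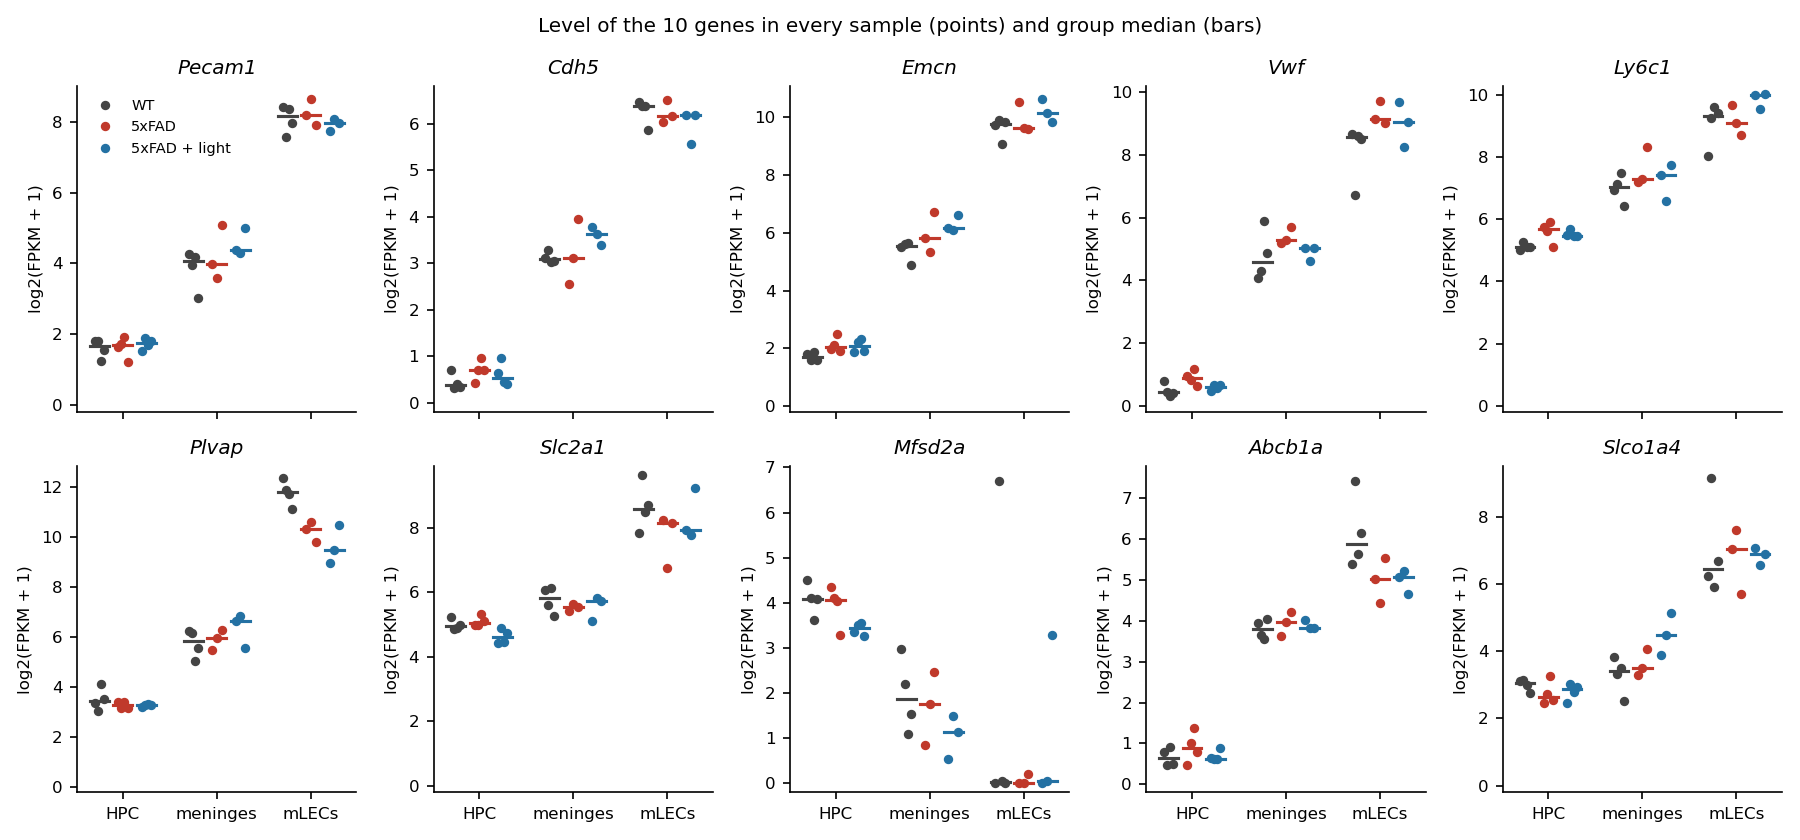
FPKM of the 10 genes in each of the 32 libraries, on a log2(FPKM + 1) axis, by tissue and condition (points: libraries; horizontal bars: group medians). By WT medians 9 of the genes are lowest in HPC and highest in mLECs and Mfsd2a runs the other way, and Plvap in mLECs falls into a higher WT group and lower 5xFAD groups, with no 5xFAD library in the WT range of 2226 to 5181.

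The comparison of WT meninges with WT HPC asked which endothelial genes differ between a tissue with mostly non-barrier vessels and brain parenchyma. All 5 general endothelial genes and Plvap were higher in meninges, Abcb1a was as well, Slc2a1 and Slco1a4 passed the test on p with differences under 2-fold, and Mfsd2a was lower. Vwf, Cdh5 and Abcb1a reached an FPKM of 1 in 1, 0 and 2 of the 12 HPC libraries and entered this test through the meningeal libraries in which they were high. Both tissues share a table, and the 22 libraries were fitted together with edgeR's quasi-likelihood test, with p adjusted by the Benjamini-Hochberg method over 15132 genes. By the rule of an adjusted p below 0.05 with at least a 2-fold change, 8 of the 10 genes were called, 7 of them higher in meninges, where 51.4% of all tested genes were called and 30.1% were called higher. By the adjusted p alone 10 of 10 passed, against 73% of all genes. In bulk tissue, fewer cells of a type and less RNA per cell cannot be told apart, and this holds for each difference that follows.

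Vwf (ENSMUSG00000001930, chr6:125546774-125686679 on GRCm38), the clotting factor carrier stored in endothelial cells and made by megakaryocytes too, had FPKM values of 0.72, 0.36, 0.24 and 0.34 in WT HPC and of 16.03, 18.67, 58.19 and 28.58 in WT meninges. Every meningeal value lay far above every hippocampal value, and replicate 3 was the highest in meninges. The log2 fold change was 4.83 (SE 0.33, adjusted p = 1.11e-10 by edgeR). Platelet genes were also higher in meninges, with sums over 6 genes of 108.4 to 256 against 3.00 to 4.82 in HPC, and their part in the result was not tested.

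Abcb1a (ENSMUSG00000040584, chr5:8660077-8748575), the drug efflux pump P-glycoprotein, had values of 0.74, 0.39, 0.87 and 0.40 in WT HPC and of 14.34, 11.48, 10.79 and 15.51 in WT meninges. The groups did not overlap. Its log2 fold change was 4.36 (SE 0.36, adjusted p = 1.17e-09 by edgeR). Its near-identical neighbour Abcb1b, which can share reads with it, had an FPKM of 1.15 to 3.27 in all HPC libraries and of 1.57 to 5.6 in all meningeal libraries.

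Cdh5 (ENSMUSG00000031871, chr8:104101625-104144511), the cadherin of endothelial junctions, had values of 0.62, 0.25, 0.33 and 0.27 in WT HPC and of 7.71, 8.78, 7.17 and 7.30 in WT meninges. Emcn (ENSMUSG00000054690, chr3:137341067-137432185), the sialomucin of capillary and venous endothelium, had values of 2.51, 2.06, 2.64 and 2.04 and of 44.06, 47.28, 49.46 and 28.71. Neither gene overlapped between the tissues. The log2 fold changes were 4.26 (SE 0.40, adjusted p = 9.43e-09 by edgeR) for Cdh5 and 3.98 (SE 0.31, adjusted p = 5.56e-10) for Emcn.

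Pecam1 (ENSMUSG00000020717, chr11:106654217-106750628), an adhesion molecule of endothelial contacts, was at 2.47, 2.53, 1.38 and 1.93 in WT HPC and at 18.14, 14.4, 17.09 and 7.09 in WT meninges. Ly6c1 (ENSMUSG00000079018, chr15:75044018-75048830), a surface protein of brain endothelium and of leukocytes, was at 31.26, 37.44, 33.27 and 33.78 and at 121.5, 139, 178 and 85.39. Both were higher in every meningeal library, with replicate 4 the lowest there for each. The log2 fold change was 2.77 (SE 0.34, adjusted p = 3.5e-07 by edgeR) for Pecam1 and 1.86 (SE 0.28, adjusted p = 4.58e-06) for Ly6c1. Ly6c2, the paralog of monocytes that can share reads with Ly6c1, was at 0.19 to 1.80 in all HPC libraries and at 24.59 to 138.1 in all meningeal libraries, so the meningeal Ly6c1 value is less certain.

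Plvap (ENSMUSG00000034845, chr8:71497765-71511752) had values of 9.20, 7.18, 16.28 and 10.41 in WT HPC and of 75.28, 69.67, 31.94 and 46.61 in WT meninges. The groups did not overlap, although HPC replicate 3 and meninges replicate 3 came nearest to each other. The difference was 4.94-fold (95% interval 3.18 to 7.69), a log2 fold change of 2.31 (SE 0.31, adjusted p = 1.11e-06 by edgeR). The choroid plexus sum ran from 36.3 to 2796 in WT HPC and from 15680 to 41860 in WT meninges. The part of choroid plexus RNA in the Plvap values of either tissue, and so in their difference, was not tested.

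Mfsd2a (ENSMUSG00000028655, chr4:122946850-122961188), the transporter of lysolipids with docosahexaenoic acid that also restrains transcytosis, was at 21.82, 16.24, 11.35 and 15.9 in WT HPC and at 6.91, 3.63, 1.14 and 1.92 in WT meninges. Every meningeal library was lower than every HPC library. The ratio was 0.214 (95% interval 0.105 to 0.436), a log2 fold change of -2.22 (SE 0.49, adjusted p = 4.24e-04 by edgeR).

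Slc2a1 (ENSMUSG00000028645, chr4:119108711-119137983), the glucose transporter GLUT1 of barrier endothelium and of other cells, was at 36.79, 28.09, 28.51 and 31.11 in WT HPC and at 65.98, 47.62, 69.31 and 37.85 in WT meninges. The groups did not overlap, by a small margin, and the ratio was 1.59 (95% interval 1.21 to 2.09, adjusted p = 0.00348 by edgeR). Slco1a4 (ENSMUSG00000030237, chr6:141805440-141856199), the organic anion transporter OATP1A4, was at 7.57, 7.88, 6.89 and 5.69 and at 13.18, 9.08, 10.36 and 4.76, and these groups overlapped, since meninges replicate 4 lay below every HPC library. Its log2 fold change was 0.73 (SE 0.27, adjusted p = 0.0186 by edgeR), and with limma on log2(FPKM + 0.1) it was 0.33 with an adjusted p of 0.324, so this difference depended on the scale. The 6 alternatives gave adjusted p values of 0.0118 to 0.324.

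**Figure D2:**
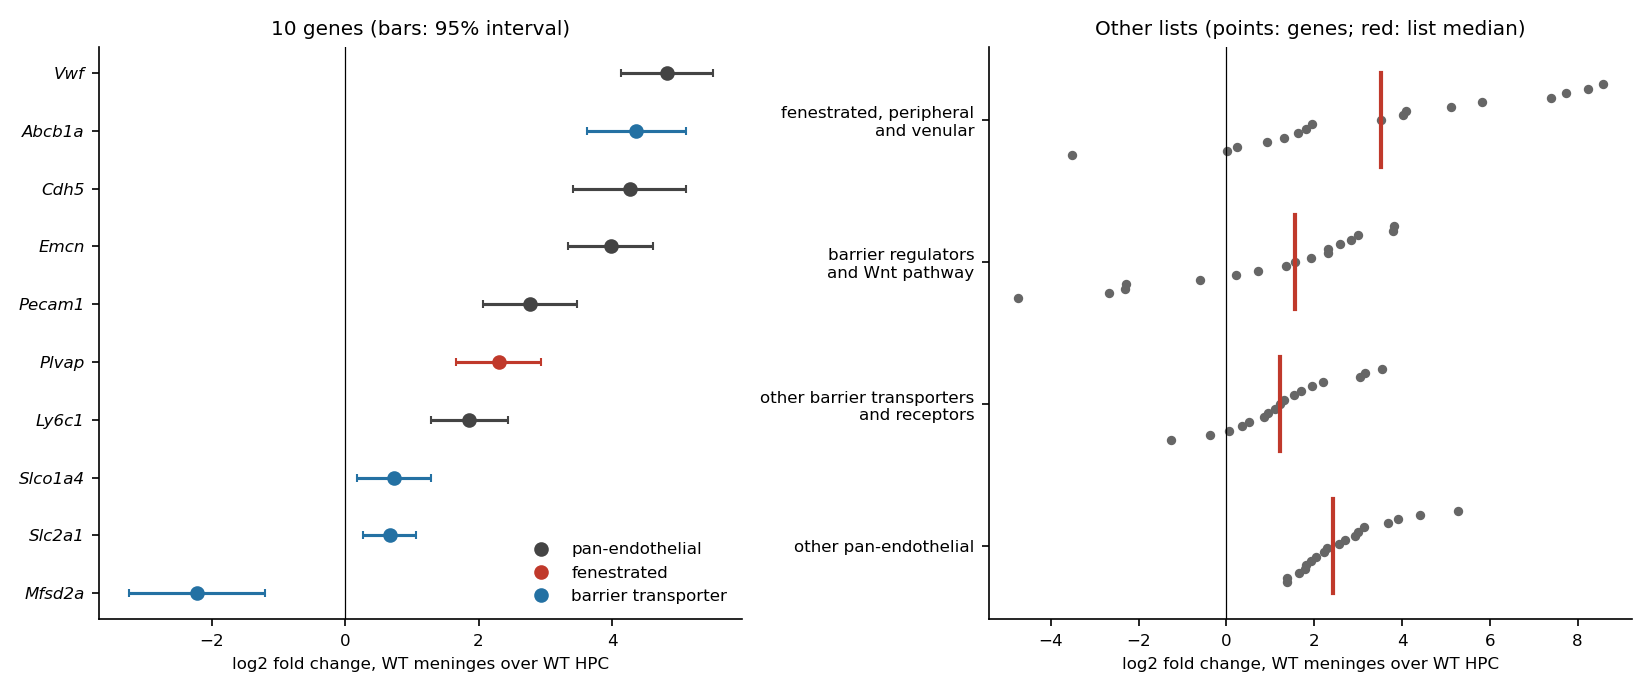
Log2 fold change of WT meninges over WT HPC by edgeR, for the 10 genes on the left with 95% intervals and for 4 other lists on the right, where points are genes that passed the filter on low values and red lines are list medians. The filter ran over both tissues together, and some genes passed it through meningeal libraries in which they were high. 9 of the 10 genes lie above 0 and Mfsd2a lies at -2.22; the list medians run from 1.21 to 3.52.

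The other endothelial lists showed where the 10 genes stood, with a median log2 fold change over all tested genes of 0.12. In the general endothelial, fenestrated and regulator lists, fewer genes passed the filter on low values in HPC libraries alone. The rest entered this test through meningeal libraries in which they were high, so these counts and medians lean toward meninges. Of 18 other general endothelial genes, 18 were called higher in meninges, with a median of 2.43; among them were Eng, a co-receptor for TGF-beta ligands, at 3.13, and Kdr, the main receptor for VEGF-A, at 2.99. Of 17 tested genes of fenestrated, peripheral and venular endothelium, 13 were called higher and 1 lower, with a median of 3.52. Esm1, secreted by endothelial tip cells, was higher by 7.75, Fabp4, a fatty acid binding protein of peripheral capillaries, by 8.24, and Gpihbp1, which holds lipoprotein lipase on capillaries, by 8.58 on the log2 scale. Car4, a carbonic anhydrase, was lower by a log2 fold change of -3.51.

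Of 17 tested transporters and receptors of the blood-brain barrier other than the 4 above, 10 were called higher in meninges and 1 lower, with a median of 1.21. The multidrug exporters Abcc4 and Abcg2 were higher by 3.54 and 3.04, and the organic anion transporter Slc22a8 by 3.15, all on the log2 scale. The transferrin receptor Tfrc was the gene called lower, at -1.25. Of 17 tested regulators of the barrier, 10 were called higher and 4 lower, with a median of 1.57. The 4 called lower were the ligands Wnt7b (-4.74), Wnt7a (-2.31) and Ndp (-2.68) and the co-receptor Tspan12 (-2.29), while the receptor Fzd4 was higher at 2.99 and Reck, which works with Wnt7 ligands at the cell surface, at 2.58. These transporters and ligands are made by other cells of the tissues too, and astrocyte and neuron marker lists were lower in meninges, by medians of -2.83 and -3.41 over 6 and 4 genes. The part of these cells in the values was not tested.

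Plvap was then set against the barrier transporters within each library, as the log2 of its FPKM minus the mean log2 FPKM of the 4 transporters, with 0.1 added to each value. In WT HPC the ratio was 0.13, 0.16, 1.25 and 0.77, a mean of 0.58 ± 0.54 (SD, n = 4). In WT meninges it was 2.13, 2.57, 1.69 and 2.42, a mean of 2.20 ± 0.39 (SD, n = 4). No meningeal library reached down to the HPC range, and this is a description with no test. This gap in the mean over the 4 transporters was lost without Mfsd2a. With the other 3 transporters alone the ratio was 0.59 to 1.5 in WT HPC and 0.69 to 2.02 in WT meninges, which overlapped. The mean over the 4 transporters hid opposite parts: against Slc2a1 the ratio went from -1.58 in HPC to -0.02 in meninges and against Mfsd2a from -0.62 to 4.22, but against Abcb1a it went from 3.96 down to 2.03. Against Slco1a4 it went from 0.56 to 2.58. The tissues did not overlap in this single ratio, at -0.13 to 1.23 in WT HPC and 1.615 to 3.265 in WT meninges.

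In WT mLECs, whose table is separate from that of the tissues, the ratio was 8.31, 3.62, 7.46 and 6.58. WT replicate 2, the library with few lymphatic transcripts, was the lowest. The untreated 5xFAD mice lay close to WT in HPC at 0.31 ± 0.31 (SD, n = 4) and in meninges at 2.37 ± 0.09 (SD, n = 3), and the light-treated 5xFAD mice at 0.64 ± 0.15 (SD, n = 4) and 2.85 ± 0.94 (SD, n = 3). In mLECs these groups had 6.09 ± 0.65 and 4.86 ± 0.40 (SD, n = 3 each), where Mfsd2a was at or near 0 in most libraries, so that the added 0.1 set its term. With the other 3 transporters alone the mLEC ratios were 3.10 to 5.87 in WT, 3.33 to 4.35 in untreated and 2.28 to 3.58 in light-treated 5xFAD mice, and all 3 groups overlapped.

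**Figure D3:**
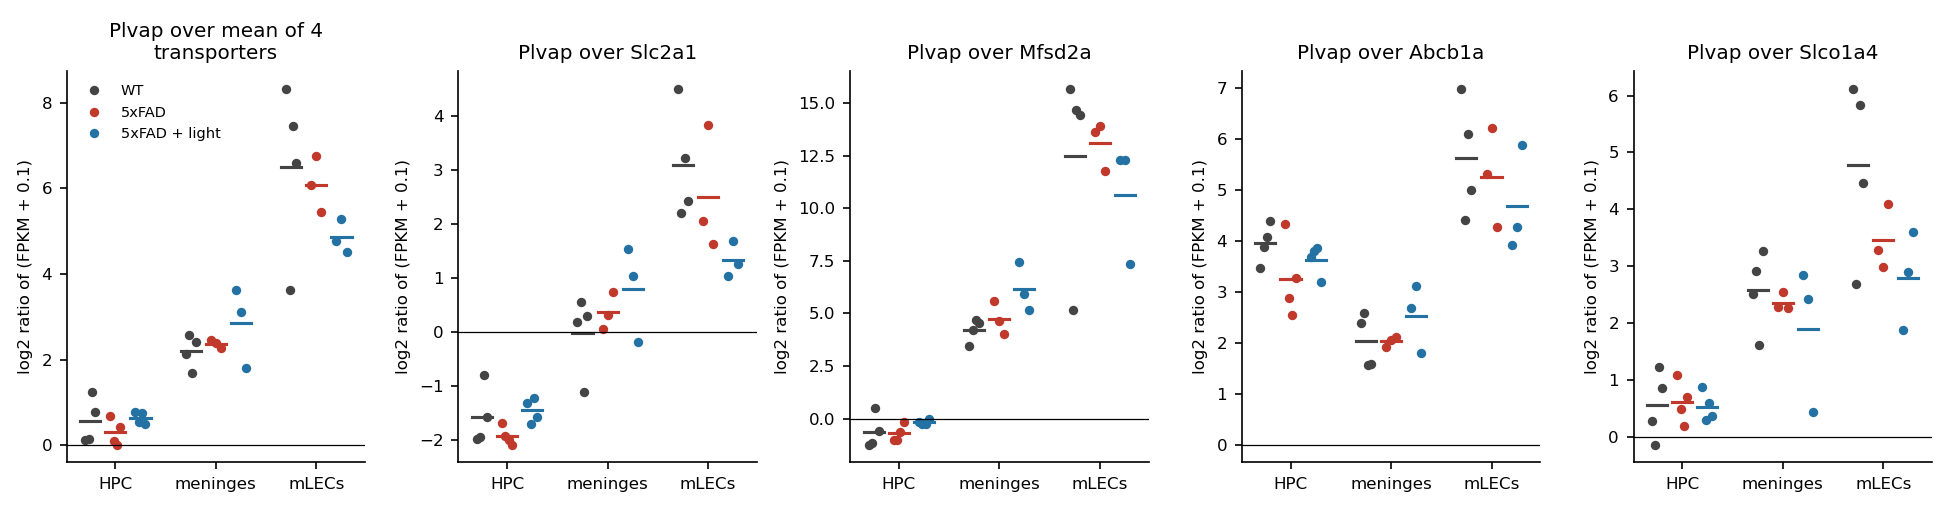
Log2 ratio of Plvap to the mean of the 4 transporters and to each of them within every library (FPKM + 0.1), by tissue and condition; points are libraries and horizontal bars are group means. The ratio to the mean rises from about 0.58 in WT HPC to 2.20 in WT meninges and 6.49 in WT mLECs, and the ratio to Abcb1a is lower in WT meninges, at 2.03, than in WT HPC, at 3.96.

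The comparison of 5xFAD with WT mice in HPC asked whether the amyloid model changes the endothelial genes of the parenchyma. Of the 10 genes, 7 passed the filter on low values, which asks for 3 or more HPC libraries with an FPKM of 1 or higher. Cdh5, Vwf and Abcb1a did not pass, with highest values of 0.96, 1.24 and 1.58 over all 12 HPC libraries. None of the 7 was called by adjusted p and 2-fold change and 1 had an unadjusted p below 0.05, where 4.28% of the 12981 tested genes were called. By adjusted p alone 1 of 7 passed, against 8.54% of all genes.

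That gene was Ly6c1. Its FPKM was 31.26, 37.44, 33.27 and 33.78 in WT HPC, 52.91, 47.67, 58.91 and 33.79 in untreated 5xFAD HPC, and 43.54, 49.83, 43.17 and 43.34 in light-treated 5xFAD HPC. 3 of the 4 untreated 5xFAD libraries lay above WT and the other lay inside the WT range. Ly6c1 was 1.44-fold higher in untreated 5xFAD than in WT mice (95% interval 1.15 to 1.79, log2 fold change 0.53, SE 0.15, adjusted p = 0.0418 by edgeR). This call was not firm: the adjusted p ran from 0.0158 to 0.101 over 8 other ways of processing and was below 0.05 in 3 of them, and with 1 library left out in turn it ran from 0.00171, without untreated 5xFAD replicate 4, to 0.123, without WT replicate 1, and was below 0.05 in 1 of 8 fits. Macrophage and leukocyte genes were also higher, with sums over 6 genes of 45.9 to 62.7 in WT and 130.8 to 235.2 in untreated 5xFAD HPC, and sums over 4 genes of cells that express Ly6c, Ly6c2 included, were 0.29 to 0.45 and 0.54 to 2.80. Their part in the Ly6c1 value was not tested.

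Emcn was at 2.51, 2.06, 2.64 and 2.04 in WT and at 2.92, 3.29, 4.65 and 2.72 in untreated 5xFAD HPC. It was the 1 gene of 7 whose groups did not overlap, against 14.5% of all tested genes. Its ratio was 1.32 (95% interval 0.909 to 1.90, adjusted p = 0.359 by edgeR), which did not pass the test. Plvap was at 9.56, 8.03, 9.71 and 7.87 in untreated 5xFAD HPC, inside the WT range, with a ratio of 0.821 (95% interval 0.60 to 1.12, adjusted p = 0.444). The other 4 genes had log2 fold changes of -0.22 to 0.15.

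The comparison of light-treated with untreated 5xFAD mice in HPC asked whether light changed these genes in the model. None of the 7 was called and 2 had an unadjusted p below 0.05, where 0.27% of all genes were called, and 1 of 7 did not overlap between the groups, against 7.63% of all genes. That gene was Slc2a1, at 31.05, 30.98, 39.3 and 33.75 in untreated and 20.66, 29.12, 21.26 and 26.04 in light-treated 5xFAD HPC. Every light-treated library was lower than every untreated library, and the ratio was 0.737 (95% interval 0.623 to 0.871). It did not pass the adjusted threshold by edgeR (log2 fold change -0.44, SE 0.11, adjusted p = 0.0885), while over the alternatives it ran from 0.0169, by DESeq2, to 0.207. Choroid plexus sums over 6 genes were 205.2 to 3189 in untreated and 63.0 to 244.2 in light-treated 5xFAD HPC, and fibroblast sums over 8 genes were 44.8 to 121.1 and 18.9 to 33.7. Untreated replicate 4 had the lowest choroid plexus sum of its group and the highest fibroblast sum, 121.1, with Slc2a1 at 33.75. The part of choroid plexus and fibroblast RNA in the Slc2a1 difference was not tested.

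Mfsd2a was at 19.25, 16.19, 15.34 and 8.69 in untreated and at 9.19, 10.43, 10.73 and 8.66 in light-treated 5xFAD HPC. 3 of the 4 untreated libraries lay above the light-treated group, and the ratio was 0.682 (95% interval 0.492 to 0.945, adjusted p = 0.204 by edgeR). Plvap was at 8.28, 8.82, 9.10 and 8.66 in light-treated mice, within the untreated range, with a ratio of 0.988 (95% interval 0.722 to 1.35, adjusted p = 0.974). The interval leaves out a 2-fold difference in Plvap either way.

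Against WT mice, light-treated 5xFAD mice again had no called gene among the 7 and 3 with an unadjusted p below 0.05 (Mfsd2a, Slc2a1 and Ly6c1), where 2.36% of all genes were called. 3 of 7 did not overlap, against 14.9% of all genes: Mfsd2a, Ly6c1 and Emcn. Mfsd2a was lower than in every WT library, with a ratio of 0.607 (95% interval 0.438 to 0.841, adjusted p = 0.101 by edgeR). DESeq2 and a fit of the 2 groups alone gave it adjusted p values below 0.05, the lowest being 0.0144 and the highest over the alternatives 0.147, and leaving out 1 library gave 0.0862 to 0.301. Ly6c1 had a ratio of 1.34 (95% interval 1.07 to 1.67, adjusted p = 0.159) and Emcn of 1.21 (95% interval 0.839 to 1.76, adjusted p = 0.614). Slc2a1, whose groups overlapped, had a ratio of 0.790 (95% interval 0.668 to 0.934, adjusted p = 0.133 by edgeR). Both 5xFAD comparisons with WT share the 4 WT libraries.

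Among the related lists in HPC, the calls were few. Over all 12981 tested genes, 8.54% passed by the adjusted p for untreated 5xFAD against WT mice, 841 higher and 267 lower. No other general endothelial gene of 13 tested passed an adjusted p below 0.05 in a comparison of conditions, and their medians were -0.01 for untreated 5xFAD against WT and 0.10 for light-treated against untreated 5xFAD. Of 12 tested regulators of the barrier, Ndp alone passed by the adjusted p, with a log2 fold change of 0.50, and of 9 tested genes of fenestrated and venular endothelium Icam1 was higher and Car4 lower. Of 17 other barrier transporters 3 passed by the adjusted p, all higher: Slco2b1, Slc38a3 and Abcc4. Slco2b1, an organic anion transporter, was the 1 with a change of at least 2-fold in untreated 5xFAD against WT mice (log2 fold change 1.13, adjusted p = 0.0017 by edgeR). Icam1, the leukocyte adhesion molecule of venular endothelium and other cells, was also higher (1.35, adjusted p = 0.015), while Car4 had a log2 fold change of -0.49 (adjusted p = 0.031). Macrophage and leukocyte sums were higher in the same comparison, as given above. The part of those cells in the Slco2b1 and Icam1 values was not tested. In light-treated 5xFAD against WT mice, the Wnt inhibitor Apcdd1 was higher (1.30, adjusted p = 0.030) and Nr2f2, the venous transcription factor, was lower (-1.14, adjusted p = 0.024). Between light-treated and untreated 5xFAD mice none of the 51 tested genes of the 4 lists was called in HPC.

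**Figure D4:**
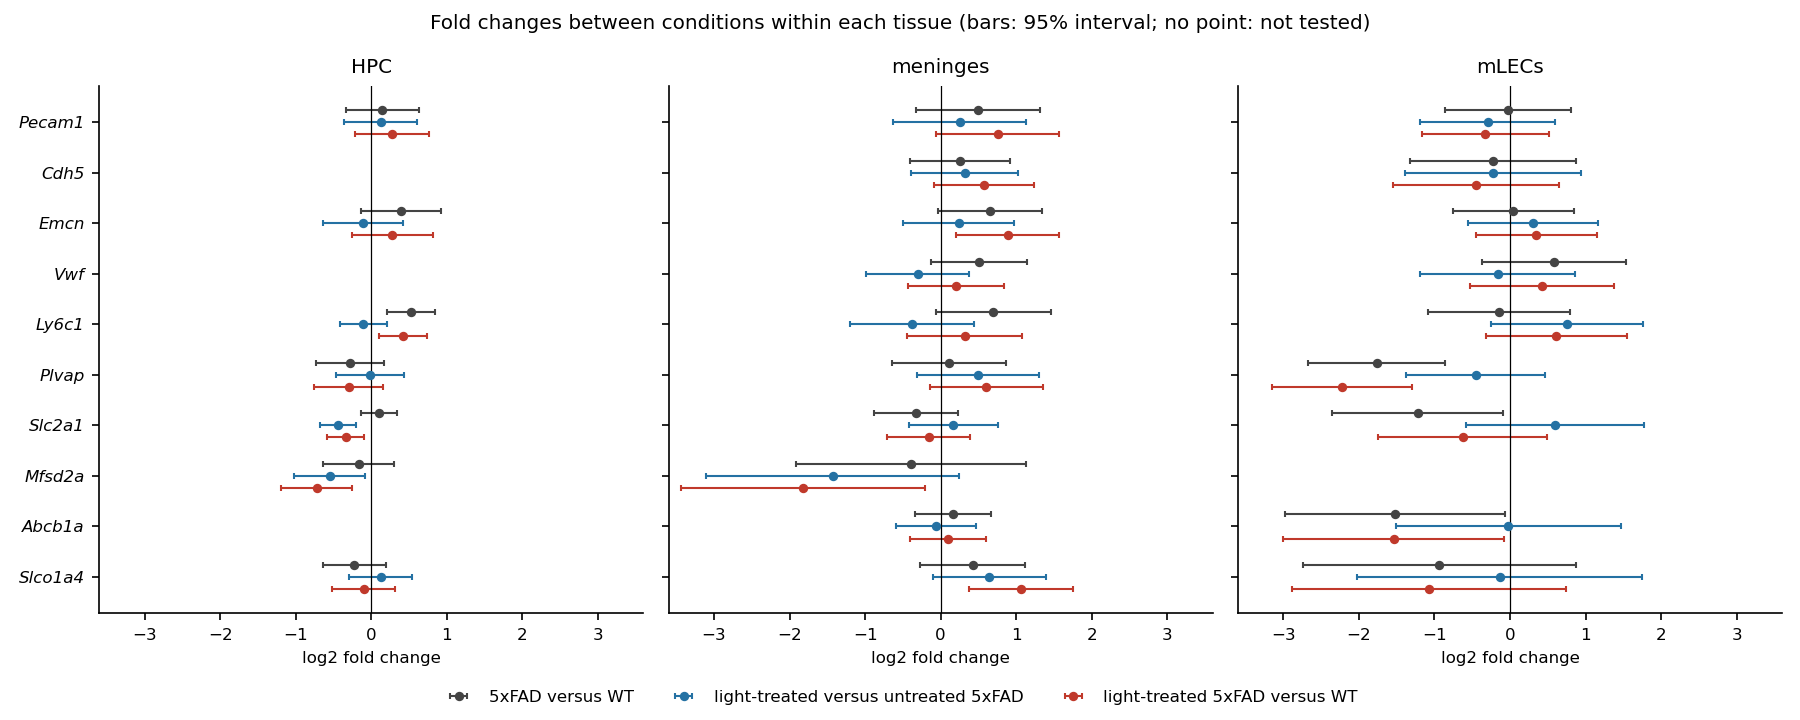
Log2 fold changes of the 10 genes between conditions within HPC, meninges and mLECs, by edgeR with 95% intervals; genes without a point did not pass the filter on low values. Most intervals include 0. Those of Plvap in mLECs lie wholly below 0 for both 5xFAD groups against WT, at -1.77 and -2.22.

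In meninges all 10 genes passed the filter. None was called or had an unadjusted p below 0.05 for untreated 5xFAD against WT mice, where 0% of the 14318 tested genes were called and 574 had an unadjusted p below 0.05, and none of the 10 had groups without overlap, against 4.85% of all genes. 8 of the 10 log2 fold changes were positive and the range was -0.39 to 0.70, with a median of 0.34 against -0.003 over all genes. Those of Abcb1a, Cdh5, Mfsd2a, Pecam1 and Plvap changed sign under an alternative or a left-out library. Emcn was at 44.06, 47.28, 49.46 and 28.71 in WT and at 55.05, 39.48 and 103 in untreated 5xFAD meninges. Untreated 5xFAD replicate 4 was far above the others for Emcn, and it was the highest meningeal library for 5 of the 10 genes. The ratio was 1.57 (95% interval 0.978 to 2.52, adjusted p = 0.987 by edgeR), and without that library the log2 fold change fell from 0.65 to 0.16. Of the 18 other general endothelial genes, 16 were positive and none was called, with a median of 0.37. Their FPKM sum was 302.8 to 440.4 in WT meninges. In untreated 5xFAD meninges it was 616.3 in replicate 4 and 273.4 and 318.5 in the others.

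Light-treated against untreated 5xFAD meninges gave no call and no unadjusted p below 0.05 among the 10, where 0.014% of all genes were called. 1 of 10 did not overlap, against 20.8% of all genes. This was Vwf, at 35.91, 38.31 and 51.66 in untreated and 31.58, 23.85 and 31.93 in light-treated mice, with a ratio of 0.809 (95% interval 0.504 to 1.30, adjusted p = 0.694 by edgeR). Plvap was at 43.4, 61.02 and 75.96 in untreated and 98.69, 114 and 46.15 in light-treated meninges. 2 of the 3 light-treated libraries lay above the untreated group and the other was near its lowest value, and the ratio was 1.41 (95% interval 0.807 to 2.47, adjusted p = 0.581).

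Light-treated 5xFAD against WT meninges had no called gene among the 10 and 3 with an unadjusted p below 0.05, where 0.014% of all genes were called. 4 of 10 did not overlap, against 12.3% of all genes: Slco1a4, Emcn, Pecam1 and Cdh5, each higher in every light-treated library. Slco1a4 was at 13.18, 9.08, 10.36 and 4.76 in WT and 13.68, 21.24 and 33.87 in light-treated meninges, and replicate 1 of the light-treated group was only just above the highest WT library. Its ratio was 2.09 (95% interval 1.30 to 3.38, adjusted p = 0.159 by edgeR). Without light-treated replicate 4 the log2 fold change fell from 1.06 to 0.63.

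Emcn was at 71.02, 67.05 and 96.87 in light-treated meninges, against a highest WT value of 49.46. The ratio was 1.85 (95% interval 1.15 to 2.97, adjusted p = 0.200 by edgeR). Pecam1 was at 19.67, 18.47 and 31.2, with a ratio of 1.69 (95% interval 0.955 to 2.97, adjusted p = 0.340), and Cdh5 at 12.82, 11.47 and 9.50, with a ratio of 1.49 (95% interval 0.943 to 2.35, adjusted p = 0.361). Mfsd2a went the other way, at 0.46, 1.80 and 1.20 against 6.91, 3.63, 1.14 and 1.92 in WT meninges. The 2 groups overlapped, and the ratio of 0.283 had a wide interval (0.0926 to 0.867, adjusted p = 0.257). Erythroid sums in these libraries were 3935 to 28470 in light-treated and 2894 to 10590 in WT meninges, and neuron sums over 4 genes were 107.8 to 356.2 and 153.8 to 395.4. Their part in the member values was not tested.

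The difference between the tissues in the response was tested as an interaction in the fit of 22 libraries. For 5xFAD against WT, none of the 10 genes was called, where 1.69% of 15132 genes were, with adjusted p values of at least 0.535. For light-treated against untreated 5xFAD mice none was called, where 0.971% of genes were, with adjusted p values of at least 0.264. The lowest p of these was 0.0562, for Slc2a1, whose light-associated log2 fold change was 0.58 higher in meninges than in HPC. Insr, the insulin receptor and a route of transcytosis at the barrier, was the 1 gene of the 4 related lists called in an interaction, at -1.47 for light-treated against untreated 5xFAD mice (adjusted p = 0.040 by edgeR).

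In mLECs, 9 genes passed the filter and Mfsd2a did not. Mfsd2a was listed at 0 in 5 of 10 libraries and at 0.03 to 0.15 in 3 more, with 102.1 in WT replicate 2 and 8.77 in light-treated replicate 3. None of the 9 was called for untreated 5xFAD against WT mLECs and 3 had an unadjusted p below 0.05 (Plvap, Slc2a1 and Abcb1a), where 0% of 8188 tested genes were called and 312 had an unadjusted p below 0.05. 2 of 9 did not overlap, Plvap and Vwf, against 6.23% of all genes.

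Plvap had FPKM values of 5181, 3672, 3375 and 2226 in WT mLECs, 1268, 1545 and 875.9 in untreated 5xFAD mLECs, and 496.2, 707.7 and 1431 in light-treated 5xFAD mLECs. Every 5xFAD library, treated or not, was lower than every WT library, and the 5xFAD groups overlapped. Against WT, the ratio was 0.294 in untreated 5xFAD mLECs (95% interval 0.157 to 0.552, log2 fold change -1.77, SE 0.42, adjusted p = 1 by edgeR) and 0.215 in light-treated 5xFAD mLECs (95% interval 0.113 to 0.409, log2 fold change -2.22, SE 0.43, adjusted p = 0.221). Neither passed the adjusted threshold by edgeR. DESeq2 called both, with adjusted p values of 0.00743 and 6.75e-05, and so did edgeR without a filter on low values, with 3.02e-08 and 1.32e-12, so the call depended on the tool and the filter. The highest adjusted p values of the 8 alternatives were 1 and 0.567, and the log2 fold change stayed between -2.25 and -1.53 for untreated and between -2.49 and -2.12 for light-treated 5xFAD mLECs. Without WT replicate 2 and untreated replicate 4 the log2 fold changes were -1.57 and -2.19, with adjusted p values of 1 and 0.579. Both comparisons share the 4 WT libraries.

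Lymphatic sums over 8 genes ran from 49.3 to 6736 in WT, from 1171 to 4490 in untreated and from 3079 to 9718 in light-treated 5xFAD mLECs, and pericyte sums over 10 genes from 0.24 to 493.4, from 29.1 to 621.2 and from 13.5 to 62.9. Their part in the Plvap values was not tested. Of the 18 other general endothelial genes, 6 were positive for untreated 5xFAD against WT, with a median of -0.36, and 3 for light-treated 5xFAD against WT, with a median of -0.68, and none was called in either. The medians over all genes were -0.04 and -0.05.

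For light-treated against untreated 5xFAD mLECs, none of the 9 was called or had an unadjusted p below 0.05, where 0% of all genes were called and 328 had an unadjusted p below 0.05. None was without overlap, against 10.1% of all genes. Plvap had a ratio of 0.731 (95% interval 0.386 to 1.38, adjusted p = 1 by edgeR). For light-treated 5xFAD against WT mLECs, none of the 9 was called and 2 had an unadjusted p below 0.05, where 0.0122% of all genes were, and 2 of 9 did not overlap, Plvap and Abcb1a, against 5.67% of all genes.

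The size, and for Slco1a4 the sign, of the transporter differences in mLECs moved with 1 library. Abcb1a was at 40.73, 171.6, 48.65 and 69.58 in WT, 31.69, 20.67 and 45.32 in untreated and 32.53, 36.27 and 24.19 in light-treated 5xFAD mLECs. WT replicate 2 was the highest library for Abcb1a, as it was for Slc2a1 at 801.5, Slco1a4 at 570.6 and Mfsd2a at 102.1. The log2 fold change of Abcb1a was -1.52 for untreated (adjusted p = 1 by edgeR) and -1.54 for light-treated 5xFAD against WT mLECs (adjusted p = 0.740), and without that library they were -0.80 and -0.82. Every light-treated library was below every WT library with or without it. For Slc2a1 in untreated 5xFAD mLECs it was -1.22 (adjusted p = 1), and -0.75 without that library. For Slco1a4 the log2 fold changes against WT were -0.94 in untreated and -1.07 in light-treated 5xFAD mLECs, and 0.62 and 0.50 without that library (adjusted p = 1 in each of these fits by edgeR). Among the general endothelial genes Vwf was at 406, 103.8, 391.9 and 364.4 in WT and 573.8, 850.3 and 523.9 in untreated 5xFAD mLECs. All 3 untreated libraries were above WT, with a ratio of 1.5 (95% interval 0.773 to 2.89, adjusted p = 1), and its log2 fold change was 0.58, or 0.31 without WT replicate 2. In the same comparison the others, Pecam1, Cdh5, Emcn and Ly6c1, had log2 fold changes of -0.22 to 0.04.

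How the 10 genes varied together within groups was described over the 22 HPC and meningeal libraries, on log2(FPKM + 1) after each group's mean was subtracted. These points share tables, depth and tissue composition, and no p is given. Pecam1 went with Emcn (Pearson's r 0.85, Spearman's rho 0.79), with Ly6c1 (r 0.82, rho 0.70) and with the transporter Slco1a4 (r 0.80, rho 0.86). Plvap did not follow Pecam1 (r -0.09) and ran against Vwf (r -0.52). Among 15131 other genes, those most like Plvap were Chek2 (r 0.93), Plekhf1, Cpxm2, Acer3 and E130114P18Rik (r 0.82), and those most like Slco1a4 were Jcad (r 0.86), Rabgap1, Slu7, Aktip and Tmem67 (r 0.83). In HPC, untreated 5xFAD replicate 3 was the highest library for 8 of the 10 genes.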

How the data were processed

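RNA was measured in 32 libraries of single mice, made with oligo-dT priming and full-length amplification (Smart-seq2) without molecular identifiers, so that precision covers counting and sample spread together. The authors deposited estimated counts, which need not be whole and were rounded here before each count test, and FPKM values per gene, in a table for HPC and meninges and another for mLECs. The study's methods name fastp and RSEM for these steps, and per the labels the submitters' processing notes name Trimmomatic, HISAT2, StringTie and DESeq2 with the mm10 build; which of them made the values was not settled. Symbols were taken from the mLEC table, where 97.1% equalled GENCODE vM21, against 68.6% in the tissue table, and joined by identifier; positions are those of that annotation on GRCm38.

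Genes that reached an FPKM of 1 in 3 or more libraries of a tissue were tested with edgeR 4.0.16 in R 4.3.3 (TMM scaling, quasi-likelihood test, Benjamini-Hochberg adjustment over all tested genes), with the 3 groups of a tissue in 1 fit, and all 22 HPC and meningeal libraries in a fit of 6 groups for tissues and interactions. A call needed an adjusted p below 0.05 and at least a 2-fold change. Ratios and 95% intervals come from the same fits, and p-values measure the spread between mice. Alternatives were DESeq2 1.42.0, limma 3.58.1 on log2(FPKM + 1) or log2(FPKM + 0.1), other size factors, no filter or a mean FPKM of at least 5, the compared groups alone, a replicate block and each library left out. A fit of mLECs without both libraries that stood apart, and the Plvap ratio without Mfsd2a, were added after the data were seen. The 10 genes and all lists were chosen with earlier results of these data known: every member is named, and genes of other lists were named from those called or as examples of their list. No pair of deposited replicates agreed within sampling noise.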

Additional observations from a re-analysis of the deposited data

Results flagged for a closer look

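In groups of 4 libraries, a library was marked where its gap to the nearest other library, as a share of the group's range on the log2(FPKM + 1) scale, passed Dixon's 95% critical value. This occurred in 5 of 50 groups, while chance marks about 1 in 20. In WT mLECs, Mfsd2a was at 102.1 in replicate 2 against 0 to 0.03 in the others (a gap of 0.994 of the range), and Vwf was at 103.8 in the same library against 364.4 to 406 (gap 0.920). Cdh5 was at 57.26 in WT mLEC replicate 4 against 82.00 to 87.64 (gap 0.843). In light-treated 5xFAD HPC, Ly6c1 was at 49.83 in replicate 2 against 43.17 to 43.54 (gap 0.941), and Abcb1a was at 0.86 in replicate 4 against 0.53 to 0.55 (gap 0.934). No gene of the 10 had a tested difference in response between HPC and meninges.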

How the results depend on the processing

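30 fold changes of the 10 genes had an unadjusted p below 0.05 or groups without overlap. Of their 450 recomputed values, 445 kept their direction and stayed called or not called by adjusted p with 2-fold change. The other 5, all of Plvap in mLECs, were called where edgeR's test had not called them. A change under 2-fold cannot be called whatever its p, so this count does not show how p moved. In HPC the adjusted p of Slc2a1, Mfsd2a and Ly6c1 crossed 0.05 under some alternatives, as given above. Of all 88 tested fold changes between conditions or tissues, 27 changed sign under at least 1 alternative or left-out library. None of these 27 was called, and the largest was that of Slco1a4 in light-treated 5xFAD against WT mLECs (-1.07). In 6 of 206 recomputed counts, a comparison with 0 of the 10 genes called gained 1. Smaller relative shifts are not among these 6: WT meninges against WT HPC went from 8 called genes to 10 without a fold threshold. Without a fold threshold, 1 gene (Ly6c1) was called for untreated 5xFAD against WT HPC. In mLECs, 1 gene (Plvap) was called for untreated 5xFAD against WT without a filter on low values and with DESeq2, and 1 (Plvap) for light-treated 5xFAD against WT without that filter, with DESeq2 and with limma on log2(FPKM + 1). Without both mLEC libraries that stood apart, 0 genes of the 10 were called in the 3 mLEC comparisons by edgeR. In HPC and meninges DESeq2 called 0 of the 10 between conditions. For WT meninges against WT HPC, 9 of the 10 genes, Slco1a4 being the other, kept an adjusted p below 0.05 in all 6 alternatives and all 8 fits with a library left out.

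The log2 ratio of Plvap to the 4 transporters turned to -0.17 in untreated 5xFAD HPC when computed from counts scaled for library size alone, which leave transcript length in. On that scale it was 0.13 in light-treated HPC, 1.58 in WT meninges and 1.77 in untreated 5xFAD meninges. With 1 added in place of 0.1 it was 0.39 in light-treated HPC, 2.20 in untreated 5xFAD meninges, and 5.33 and 4.32 in untreated and light-treated 5xFAD mLECs. Without Mfsd2a in the mean, a setting chosen after seeing the data, it was 0.65 and 0.91 in untreated and light-treated 5xFAD HPC, 1.53, 1.58 and 1.74 in WT, untreated and light-treated 5xFAD meninges, and 3.75 and 2.94 in untreated and light-treated 5xFAD mLECs.

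Counts over all genes moved more. For untreated 5xFAD against WT HPC, 556 genes were called, with 211 at a mean FPKM of at least 5 and 318 by limma on log2(FPKM + 1). For light-treated against untreated 5xFAD HPC, 35 were called, with 192 by DESeq2, 61 without a filter, 0 at a mean FPKM of at least 5 and 0 with these groups alone. For light-treated 5xFAD against WT HPC, 306 were called, with 132 and 186 at a mean FPKM of at least 5 and by limma. In meninges, 0, 2 and 2 were called for untreated against WT, light-treated against untreated and light-treated against WT, with 0, 72 and 372 by DESeq2. In mLECs, in the same order, 0, 0 and 1 were called, with 185, 357 and 464 by DESeq2 and 9, 15 and 44 without a filter. For the interactions, 256 and 147 were called, with 452 and 576 by DESeq2. With a library left out, the counts ran from 422 to 642, 0 to 136 and 238 to 323 in HPC.

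Replicate numbers did not pair the samples: over 39 same-numbered pairs the correlation of deviations ran from -0.32 to 0.26, with 5 over 0.1. A replicate block changed no call of the 10 genes, and gave 0, 0 and 3 called genes in mLECs and 0 in each meningeal comparison with light-treated mice. The biological coefficient of variation was 0.198 in HPC, 0.350 in meninges and 1.89 in mLECs, so mLEC folds have the widest intervals.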
